A study of Mus musculus with 70 samples.

Results

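Immediate early genes are switched on within minutes of a stimulus, without new protein synthesis, and in neurons they are widely read as a record of recent activity. Calcium entry and kinase signalling act on factors such as CREB and the serum response factor that are already bound near their promoters, and the transcripts decay quickly once the stimulus ends. Most of their products are transcription factors that set a later wave of genes, while Arc acts at the synapse itself. The 10 genes described here were chosen by name: Fos, Fosb and Junb, subunits of the AP-1 transcription factor; Egr1, Egr2 and Egr4, zinc finger factors of the EGR family; Nr4a1, an orphan nuclear receptor; Npas4, a neuronal transcription factor induced by calcium influx; Arc, which promotes the removal of AMPA receptors from synapses; and Ier2, a small nuclear protein of the same early response. They are 10 of 34677 genes with a summed TPM value (transcript abundance scaled for transcript length and library depth), and all 10 were found under 1 gene ID each, all passed the filter on low counts, and the rule lists their names and uses no measured value, although it was set with earlier results of these data known.

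The study profiled mRNA of brain areas that control energy balance in C57BL/6NTac mice, with 57 libraries from 18 regions of P56 males, 9 libraries from 4 regions of E14.5 embryos and 4 libraries of embryonic stem cells (mESC) in 2 lines derived from C57BL/6, B6-1 and B6-2. No genotype, stimulus or treatment set the brain groups apart, and the adult mice had free access to chow and were killed by cervical dislocation. Each brain library was pooled from punches of several mice, except 1 library of the nucleus accumbens from 1 mouse, so that p-values measure the spread between pools and not between animals. The mESC were taken off their feeder cells and grown with LIF, the GSK3 inhibitor CHIR-99021 and the MEK inhibitors CI-1040 and PD0325901. The adult regions were the anterior cingulate (ACA), frontal pole (FRP) and entorhinal (ENT) areas of the cerebral cortex (9 libraries), the nucleus accumbens (ACB, 3), the arcuate (ARH), ventromedial (VMH), dorsomedial (DMH) and paraventricular (PVH) nuclei and the lateral area (LHA) of the hypothalamus (14), and the ventral tegmental area (VTA, 3). They also included the parabrachial nucleus (PB), nucleus of the solitary tract (NTS) and dorsal vagal complex (DVC) of the hindbrain (10), the cerebellar nuclei (CBN, 3), and the central lobule, culmen, uvula and flocculus of the cerebellar cortex (CENT2, CUL4-5, UVU and FL, 15). The embryonic groups were forebrain (F, 1 library), midbrain (M, 2), hindbrain (H, 3) and terminal with peduncular hypothalamus (THy-PHy, 3).

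The total estimated count per library ran from 13409041 to 20647884 in the adult regions, from 9074581 to 22229582 in the embryonic regions and from 12985081 to 18501667 in mESC, and no 2 libraries held identical values. VTA 1 stood apart, with 39.6% of its TPM on mitochondrially encoded genes against a median of 7.71% over the adult libraries, and so did the embryonic library H 1, with 22.6%. Of 23 markers checked against the labelled regions, 19 were highest in their own group, and Sim1 in PVH, Fezf1 in VMH and Neurod1 in the embryonic brain were among those highest elsewhere. The library numbers of the brain libraries were divided into runs, called blocks here, in each of which a region occurs at most once. Most borders were set where the order of regions begins again and not at a gap in the numbers. Of the blocks, 5 hold adult libraries (11, 15, 14, 15 and 2). The blocks were taken to follow, in order, the collection batches that the study mentions. This match was inferred and is not stated for single libraries. Since the study used fewer adult mice than libraries, regions share mice. The blocks of the embryonic libraries hold no adult library, so stage and block cannot be told apart.

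On GRCm38, Fos lies on chromosome 12 (chr12:85473890-85477273, + strand), Fosb on chromosome 7 (chr7:19302696-19310051, - strand), Egr2 on chromosome 10 (chr10:67535475-67542188, + strand) and Egr4 on chromosome 6 (chr6:85511121-85513589, - strand). Arc (chr15:74669083-74672570, - strand) and Nr4a1 (chr15:101254269-101274795, + strand) share chromosome 15, Junb (chr8:84974484-84978718, - strand) and Ier2 (chr8:84661331-84662852, - strand) chromosome 8. Npas4 lies on chromosome 19 (chr19:4984355-4990316, - strand). All 10 genes are protein-coding.

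Promoter sequence of RefSeq (GRCm38.p6) was found for 7 of the 10 genes, and the 250 bases before the start are printed for 4 to which the results return, Fos and Nr4a1 for their differences between blocks and Egr2 and Egr4 for theirs between regions. Capitals mark TGACG or its reverse complement CGTCA, the core of the element to which CREB binds, and in Egr2 also a CArG box, the element bound by the serum response factor. The windows are chr12:85473640-85473889 (+) for Fos, chr10:67537619-67537868 (+) for Egr2, chr6:85513590-85513839 (-) for Egr4 and chr15:101266596-101266845 (+) for Nr4a1.
Fos: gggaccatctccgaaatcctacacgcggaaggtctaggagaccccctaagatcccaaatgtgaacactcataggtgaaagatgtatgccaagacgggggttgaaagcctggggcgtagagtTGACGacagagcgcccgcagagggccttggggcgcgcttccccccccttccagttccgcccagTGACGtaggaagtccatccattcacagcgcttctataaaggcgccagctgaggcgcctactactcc
Egr2: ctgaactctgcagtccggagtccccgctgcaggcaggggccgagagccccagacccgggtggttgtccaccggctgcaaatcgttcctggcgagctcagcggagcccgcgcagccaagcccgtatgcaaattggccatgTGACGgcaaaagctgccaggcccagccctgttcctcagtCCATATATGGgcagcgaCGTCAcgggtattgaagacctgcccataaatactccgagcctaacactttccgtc
Egr4: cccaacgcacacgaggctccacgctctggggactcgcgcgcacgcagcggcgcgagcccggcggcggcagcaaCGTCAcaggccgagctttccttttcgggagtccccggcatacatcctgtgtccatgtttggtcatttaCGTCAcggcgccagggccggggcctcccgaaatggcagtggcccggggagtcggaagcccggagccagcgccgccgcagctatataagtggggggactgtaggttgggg
Nr4a1: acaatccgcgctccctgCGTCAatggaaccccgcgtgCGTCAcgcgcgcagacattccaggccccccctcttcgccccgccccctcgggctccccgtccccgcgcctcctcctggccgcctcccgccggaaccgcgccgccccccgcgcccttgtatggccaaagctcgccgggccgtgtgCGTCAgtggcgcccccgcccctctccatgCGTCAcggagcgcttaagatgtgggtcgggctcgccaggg
On either strand, TGACG occurred 4 times in this window of Nr4a1, 2 times each in Fos, Egr2, Egr4 and Npas4, and 1 time each in Fosb and Junb. Of 27025 RefSeq promoters of the same length, 17.9% held it. The CArG box was in 1 of the 7 windows (Egr2, 72 to 63 bases before the start) and in 1.4% of all, and the full palindrome TGACGTCA was in none of the 7 and in 1.62% of all. The TATA element TATAAA, counted on the strand of the gene only, was in Fos alone of the 7 (33 to 28 bases before the start) and in 8.12% of all. The nearest TGACG lay 66 to 62 bases before the start in Fos, 55 to 51 in Egr2, 109 to 105 in Egr4 and 40 to 36 in Nr4a1. A match describes these letters in this window only. The starts are those of RefSeq. The Npas4 window lay 345 bases from the GENCODE start, within the gene span given above, and the Junb window lay 30 bases from its GENCODE start.

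Within the adult brain, 8 of the 10 genes had their highest means in the cerebral cortex and the nucleus accumbens, and most were low in the hindbrain nuclei, the VTA and the cerebellar nuclei. Fos and Ier2 did not follow this pattern, and the genes not called lower in each of the low regions are given with that region. The summed level of the 10 genes was 332 to 1070 TPM over the 9 cortical libraries and 402 to 961 TPM over the 3 of ACB. It was 94.1 to 314 TPM in the cerebellar cortex, 93.9 to 224 TPM in the hypothalamus and 66.7 to 101 TPM in the hindbrain nuclei. In the edgeR quasi-likelihood test, which took all 70 libraries in 1 model, all 10 genes differed among the adult regions at an adjusted p under 0.05, as did 80.9% of the 19980 genes tested. Each system was then set against the mean of the other adult regions, so these comparisons share libraries and are not independent. The model had no term for block or shared mice, and its p-values treat the libraries as independent. An alternative fit with the block as a term lost no call of the 10 genes in the cortex, ACB or hindbrain nuclei. A call required an adjusted p under 0.05 together with a log2 fold change beyond 1 in either direction. In bulk tissue, fewer cells that express a gene and less RNA per cell cannot be told apart.

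**Figure D1:**
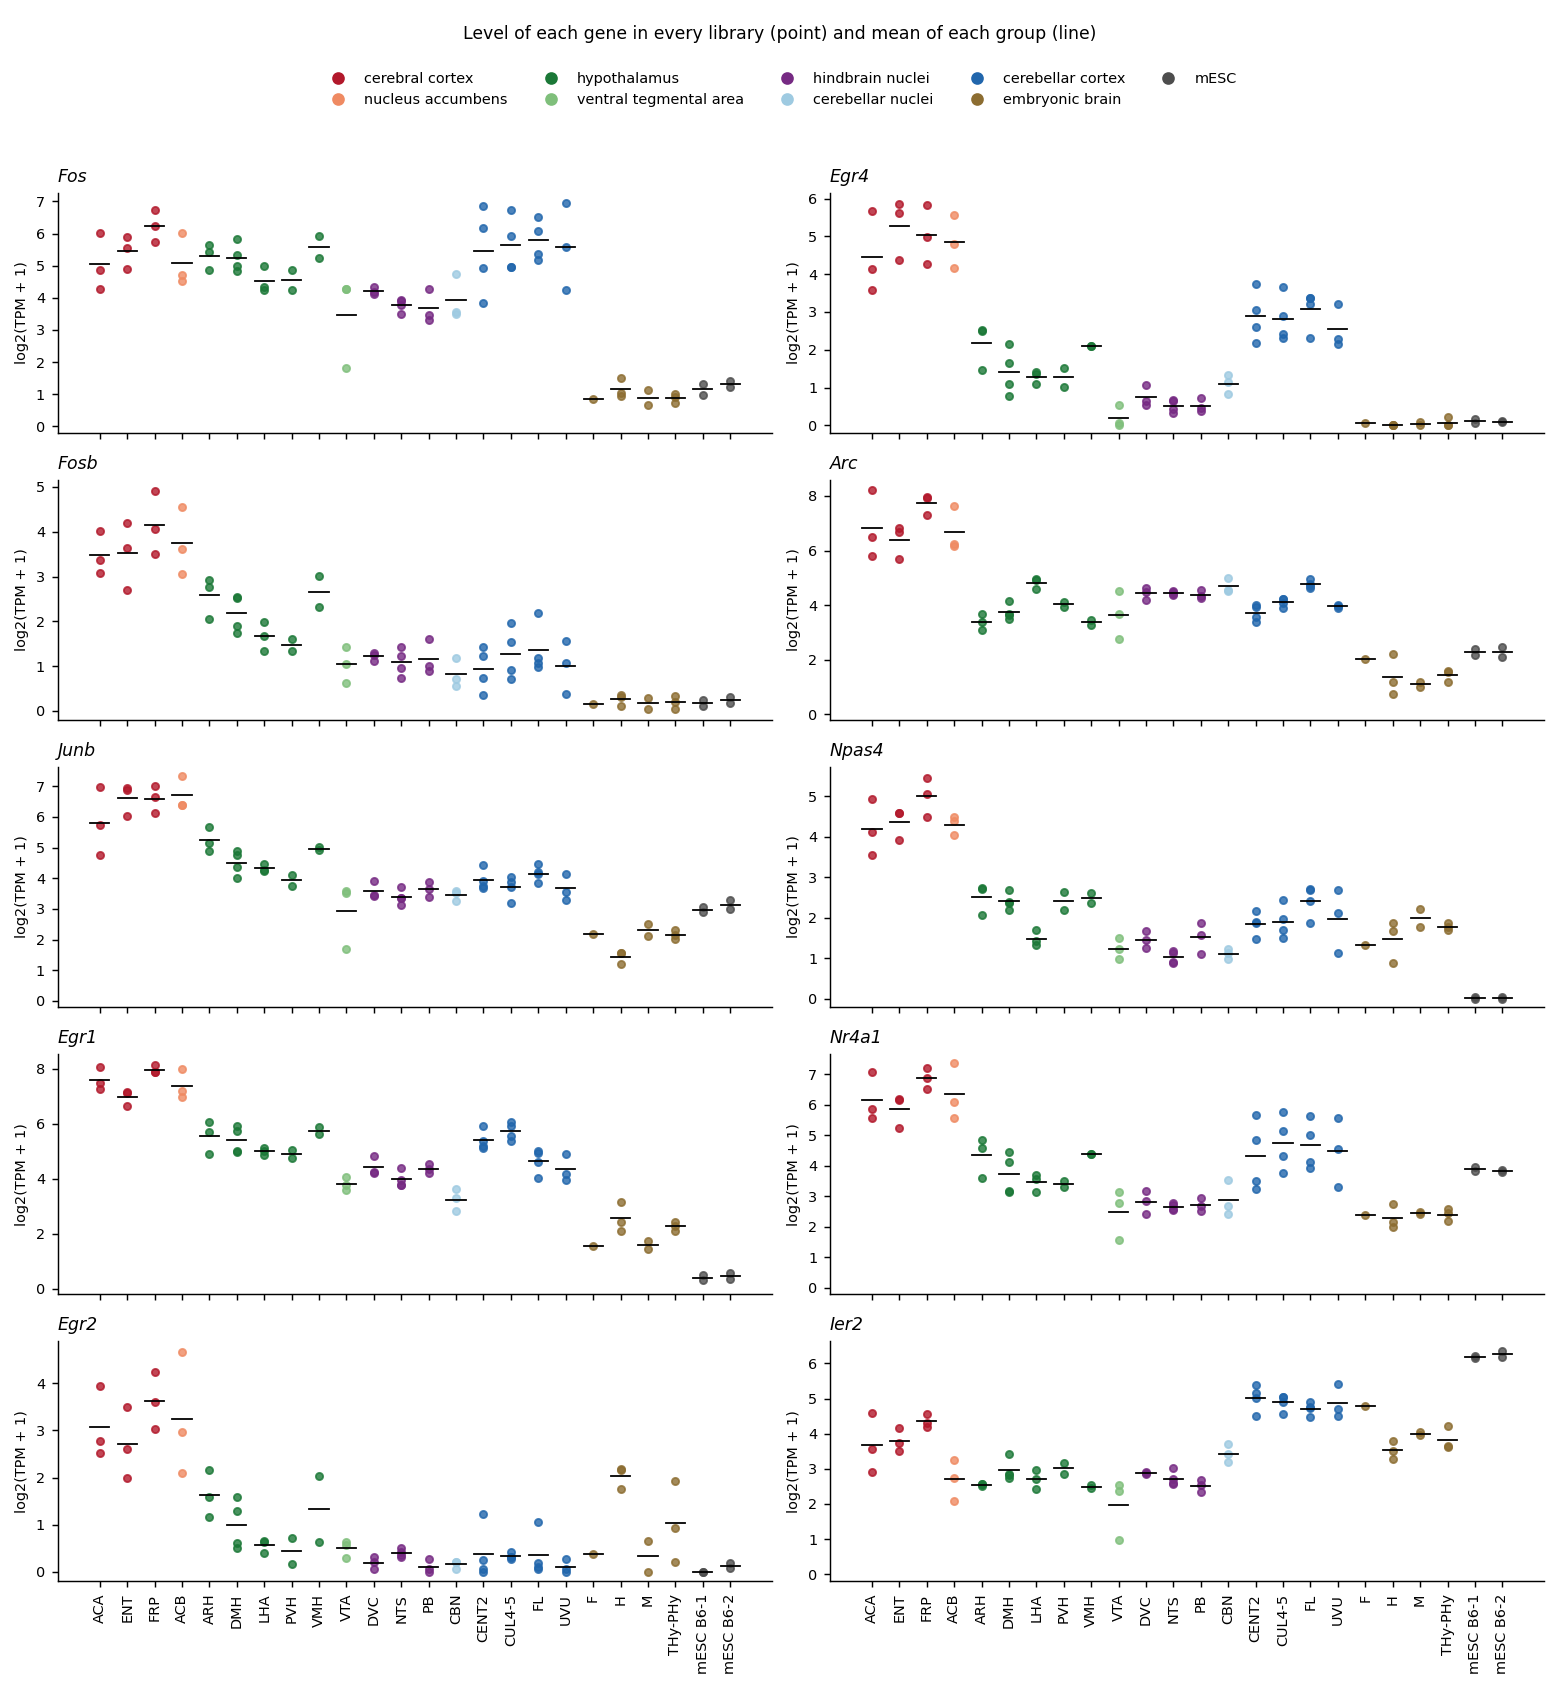
Level of each of the 10 genes as log2(TPM + 1) on the vertical axis in all 70 libraries (points, coloured by system), by region or line on the horizontal axis, with a line at each group's mean. The means of ACA, FRP, ENT and ACB are the highest for 8 genes, whereas Ier2 is highest in mESC and Fos overlaps between the cerebellar and the cerebral cortex.

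In the cerebral cortex, 8 of the 10 genes were called higher and none lower, against 8.17% of all tested genes called higher and 7.95% lower, and the median log2 fold change of the 10 was 2.84 against -0.03 over all tested genes. Those 8 were Egr2, Egr4, Npas4, Arc, Fosb, Egr1, Nr4a1 and Junb, in falling order of their change. In ACB the same 8 genes were called, against 7.3% of all tested genes called higher, with a median of 2.37. Astrocyte markers were called lower in ACB in 2 of 4 (Aqp4 -1.66 and Gfap -1.28), and mural and meningeal markers in 2 of 4 (Dcn -2.07 and Col1a1 -1.19). Of the markers of neurons and their types, Stmn2 (-1.39) and Slc17a6 (-4.00) were lower there, and Gad2 (1.56) and Slc17a7 (1.41) higher. The part of these cell types in the ACB values was not tested. Every one of the 12 cortical and accumbens libraries lay above each of the 45 other adult libraries for 3 genes: Egr1 (99.5 TPM as the lowest against 66 TPM as the highest elsewhere), Arc (50.5 against 31.3 TPM) and Npas4 (10.8 against 5.71 TPM). Of 15488 genes with a mean adult level of at least 1 TPM, 2.09% showed this separation. Within each of blocks 1 to 4, on log2(TPM + 1), the cortical mean exceeded that of the other adult libraries for all 8 genes. The difference was 1.25 (Junb, block 1) at the least and 4.05 (Egr4, block 2) at the most. In block 1 the cortex had 1 library (ACA 1), and block 5 held none of the cortex.

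Among the lists of related genes, the other EGR and NR4A members and their corepressors had 3 of 5 called higher in the cortex, Egr3 (6.01) and Nr4a3 (1.79) among them, and none lower. Of 26 other rapid response genes, 9 were called higher and none lower, led by the scaffold gene Homer1 and the kinase gene Plk2 (2.56 each). Of 10 late activity-induced genes 7 were higher and 1 lower, with Rasgrp1 at 3.51 and Nptx2, a secreted pentraxin of excitatory synapses, at 2.89. The upstream regulators had 7 of 19 higher and none lower, with Mef2c at 4.64 and Camk2a at 4.22. Medians of these 4 lists were 1.17, 0.78, 1.33 and 0.96 on the log2 scale. Of the other AP-1 subunits only Fosl2 (1.48) of 7 was called in the cortex. Oligodendrocyte markers were lower in 4 of 4 (median -2.38), with a summed level of 555 to 1920 TPM in the cortex against 9160 to 14100 TPM in the hindbrain nuclei, and neuronal markers were higher in 1 of 4 (Syt1, 1.86). None of these oligodendrocyte and neuronal markers was listed at 0 in any library. Slc17a7 of excitatory neurons (4.96) and P2ry12 of microglia (1.09) were also called higher in the cortex. Slc17a6 of excitatory neurons (-2.73), Slc32a1 of inhibitory neurons (-1.13) and Aqp4 of astrocytes (-1.46) were called lower. The part of cell composition in these differences was not tested.

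Fos encodes the AP-1 subunit most used to map active neurons, and of the 10 genes it had the smallest SD between region means. Its level was 18.5 to 104 TPM (median 52.8, n = 9) in the cerebral cortex, 13.5 to 123 TPM (median 46.5, n = 15) in the cerebellar cortex and 17.9 to 59.2 TPM (median 30.9, n = 14) in the hypothalamus. The hypothalamic range lies within the cerebellar one, and all 3 overlap. In ACB the libraries read 22.1, 63.8 and 25 TPM, in CBN 10.7, 26 and 10.4 TPM and in VTA 2.5, 18.5 and 18.2 TPM. The hindbrain nuclei read 8.92 to 19.4 TPM (median 14.2, n = 10). Their median was below those of the cerebral cortex, cerebellar cortex and hypothalamus, and their range overlapped CBN and VTA. The group with the highest mean was FRP (77.3 ± 25.9 TPM, SD, n = 3), followed by UVU (62.4 ± 54.3 TPM, SD, n = 3), and 22 of 23 neighbouring pairs in the order of the 24 groups lay within the larger SD of the pair. The cerebral cortex was 0.88 ± 0.23 (SE) above the other regions on the log2 scale, past the adjusted p (edgeR, 0.00108) but short of the fold limit. ACB did not pass either (0.24 ± 0.40, edgeR adjusted p = 0.694).

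Fosb, whose product pairs with JUN proteins, was 5.55 to 29.2 TPM (median 11.4, n = 9) in the cortex and 11.2, 22.6 and 7.31 TPM in ACB. The hypothalamus was intermediate, at 1.52 to 7.01 TPM (median 3.06, n = 14), with the highest hypothalamic means in VMH (5.5 ± 2.14 TPM, SD, n = 2) and ARH (5.19 ± 1.82 TPM, SD, n = 3). VMH has libraries in blocks 2 and 3 only and ARH has none in block 1, so this order is not balanced over blocks. Within block 3, VMH 1 (3.99 TPM) was below both DMH 3 and ARH 2. All 15 libraries of the cerebellar cortex lay under the lowest cortical library, at 0.288 to 3.54 TPM (median 1.11, n = 15), and so did the 10 of the hindbrain nuclei at 0.677 to 2.03 TPM (median 1.25, n = 10). Against the other adult regions, Fosb was higher by 2.95 ± 0.19 in the cortex (edgeR adjusted p = 2.65e-19) and by 2.61 ± 0.28 in ACB (edgeR adjusted p = 4.04e-11).

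The gene also makes the truncated product known as delta-FosB, through splicing out of a 140-base segment of its last exon. That segment lies at chr7:19305007-19305146 (- strand, GRCm38, GENCODE annotation) within the coding region of the full-length transcript and is printed because its presence or absence sets the 2 forms apart.
Fosb segment: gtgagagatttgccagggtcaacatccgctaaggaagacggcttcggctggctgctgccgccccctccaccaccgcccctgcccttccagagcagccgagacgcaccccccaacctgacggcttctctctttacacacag
Of the annotated Fosb transcripts, 2 splice it out, and a retained-intron transcript ends before it. Over the 12 cortical and accumbens libraries, the 2 that splice it out made up a median of 17.4% of the Fosb TPM (0.0342% to 27.3%). In ARH they made up 34.5% to 42.8% and in VMH 34.3% and 44.6%, while DMH ran from 9.87% to 33.8%. No test was run on these shares, since reads of 33 cycles leave the split between the forms uncertain: ACB 3 read 0.119% and ENT 1 0.0342% at 7.31 and 5.55 TPM of Fosb, and CBN ran from 0% to 95%.

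Junb encodes an AP-1 partner that tends to restrain growth-promoting JUN activity. Its level was 26 to 127 TPM (median 99.1, n = 9) in the cortex and 83.6, 159 and 83 TPM in ACB, the group with the highest mean (109 ± 43.7 TPM, SD, n = 3). ARH (34.3, 49.7 and 28.6 TPM), VMH (29 and 31.1 TPM), DMH 2 (28.7 TPM) and DMH 3 (26.2 TPM) lay above the lowest cortical library, ACA 1. The remaining adult systems were lower, with 8.05 to 20.9 TPM (median 13.6, n = 15) in the cerebellar cortex and 7.75 to 14.1 TPM (median 9.82, n = 10) in the hindbrain nuclei. The difference was 2.49 ± 0.13 in the cortex (edgeR adjusted p = 2.19e-23) and 2.43 ± 0.19 in ACB (edgeR adjusted p = 7.62e-16).

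Egr1, a gene on chromosome 18 also known as Zif268, had the highest median TPM of the 10 genes over the cortical libraries, at 99.5 to 283 TPM (median 176, n = 9), and read 146, 254 and 124 TPM in ACB. The highest library elsewhere in the adult brain was in ARH, and the hypothalamus ran from 25.8 to 66 TPM (median 33, n = 14). The cerebellar groups read 58.8, 65.7, 46.1 and 40.9 TPM in CUL4-5 and 34, 35.7, 59.8 and 40.3 TPM in CENT2 against 15.2 to 31.5 TPM in the 4 libraries of FL and 28.8 TPM as the highest of 3 libraries in UVU. No test between these groups was run. CBN was the lowest adult group, with 6.04, 11.2 and 8.85 TPM. Egr1 was 2.72 ± 0.12 higher in the cortex (edgeR adjusted p = 8.61e-26).

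Egr2, known in development for patterning the embryonic hindbrain and for myelination by Schwann cells, had the largest edgeR difference of the 10 genes in both the cortex (4.91 ± 0.27, edgeR adjusted p = 2.8e-22) and ACB (4.73 ± 0.34, edgeR adjusted p = 3.35e-17). With limma on log2(TPM + 0.5), Egr4 had the larger difference in both (3.39 against 2.96 for Egr2 in the cortex and 2.90 against 2.72 in ACB). Egr2 was 2.99 to 17.8 TPM (median 7.15, n = 9) in the cortex and 6.82, 24.4 and 3.29 TPM in ACB. Outside these, the hypothalamus reached 3.50 TPM in ARH, which overlapped the lowest cortical library (ENT 1). The hindbrain nuclei, CBN and all but 2 libraries of the cerebellar cortex stayed under 0.5 TPM, and 1 library each of CENT2, UVU and PB was listed at 0. The SD in ACB was nearly as large as the mean (11.5 ± 11.3 TPM, SD, n = 3), with ACB 2 far above the other two.

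Egr4 was 11.1 to 57.1 TPM (median 31, n = 9) in the cortex and 26.7, 46.2 and 17 TPM in ACB, and the cerebellar cortex came next, at 3.44 to 12.4 TPM (median 6.42, n = 15). The lowest cortical library (ACA 1) lay within the cerebellar range. In the hypothalamus Egr4 was 0.72 to 4.79 TPM (median 1.82, n = 14) and in the hindbrain nuclei 0.261 to 1.1 TPM (median 0.501, n = 10). VTA read 0, 0.439 and 0.0435 TPM, the lowest adult group. Differences were 4.12 ± 0.20 in the cortex (edgeR adjusted p = 6.74e-24) and 3.36 ± 0.28 in ACB (edgeR adjusted p = 1.44e-14).

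Nr4a1, also called Nur77, followed the cortex and ACB pattern with a wide spread between pools. It was 36.9 to 146 TPM (median 72.9, n = 9) in the cortex, 66.9, 165 and 46.5 TPM in ACB and 8.52 to 53.5 TPM (median 22.5, n = 15) in the cerebellar cortex, where the upper libraries overlapped the lower cortical ones. The hypothalamus was lower, at 7.76 to 28.2 TPM (median 11.5, n = 14), and the hindbrain nuclei lower again, at 4.35 to 8.15 TPM (median 5.47, n = 10). In edgeR, Nr4a1 was 2.66 ± 0.20 higher in the cortex (adjusted p = 7.07e-17) and 2.44 ± 0.30 higher in ACB (adjusted p = 1.14e-09).

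Npas4, which controls genes for inhibitory synapses onto active neurons, was 10.8 to 42.8 TPM (median 23.1, n = 9) in the cortex and 15.5, 21.4 and 19.9 TPM in ACB. FRP stood above the next group by more than the larger SD (32.3 ± 10.6 TPM, SD, n = 3 against 20.2 ± 5.15 TPM, SD, n = 3 in ENT), the sole gene of the 10 for which the first 2 groups were so separated. In the hypothalamus, ARH, VMH, DMH and PVH ranged from 3.20 to 5.71 TPM, above the 3 libraries of LHA (1.52, 2.25 and 1.67 TPM). In edgeR, Npas4 was 3.09 ± 0.13 higher in the cortex (adjusted p = 3.28e-27) and 2.32 ± 0.20 higher in ACB (adjusted p = 1.57e-14).

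Arc was 50.5 to 296 TPM (median 113, n = 9) in the cortex and 73.8, 196 and 70.3 TPM in ACB. In the remaining adult brain it was 17.5 to 23.9 TPM (median 20.8, n = 10) in the hindbrain nuclei, 22, 22.6 and 31.3 TPM in CBN and 9.35 to 30.3 TPM (median 15.2, n = 15) in the cerebellar cortex. Its lowest adult groups were VMH (10.1 and 8.7 TPM) and ARH (11.8, 9.52 and 7.49 TPM), which were among the highest hypothalamic groups for Fosb, Egr1 and Egr2. Within the hypothalamus LHA stood apart, with 29.2, 30.3 and 23 TPM. Arc was 3.03 ± 0.13 higher in the cortex (edgeR adjusted p = 8.88e-27) and 2.25 ± 0.20 higher in ACB (edgeR adjusted p = 6.62e-14). Of its 6 listed partners at the synapse, Gria2 (1.40), an AMPA receptor subunit, and Dlg4 (1.26), a postsynaptic scaffold, were called higher in the cortex.

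Ier2 had another pattern. In the cerebellar cortex it was 21.3 to 41.8 TPM (median 28.8, n = 15), and in the cerebral cortex 6.53 to 22.8 TPM (median 17, n = 9), with FRP 1 and ACA 2 alone reaching into the cerebellar range. ACB was no higher than the rest (3.26, 8.56 and 5.72 TPM), and the hypothalamus ran from 4.37 to 9.79 TPM (median 5.61, n = 14). The difference in the cortex was 0.90 ± 0.12 (edgeR adjusted p = 8.55e-09), under the fold limit, and that in ACB was -0.74 ± 0.23 (edgeR adjusted p = 0.00825).

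In the cerebellar cortex, 3 of the 10 genes were called higher, against 8.21% of all tested genes, and 3 lower, against 9.75%. Ier2 (1.89 ± 0.10), Egr4 (1.11 ± 0.21) and Fos (1.02 ± 0.20) were higher, and Egr2 (-2.47 ± 0.42), Fosb (-1.54 ± 0.22) and Junb (-1.03 ± 0.14) lower, with a median of -0.58 over the 10. Within the blocks, Ier2 kept its difference at 1.82 to 2.18 on log2(TPM + 1), Egr4 at 0.59 to 1.86 and Fos at 0.55 to 1.49. Junb ran from -0.97 to 0.21 there. With limma on log2(TPM + 0.5), 3 genes were called (Ier2 1.97, Egr2 -1.38 and Fosb -1.23), and Egr4 (0.83), Junb (-0.83) and Fos (0.92) were under the fold limit. Fos passed there without CENT2 1 or without UVU 1, its values running from 0.74 to 1.09 as each library was left out. Nab2, a corepressor of EGR factors, was also higher (1.93) and Egr3 lower (-3.10). Microglial markers were lower in 4 of 4 (median -1.51), at 22.7 to 54.2 TPM in sum against 95.6 to 126 TPM in the cerebral cortex. Astrocyte markers were higher in 2 of 4 (Aqp4 1.47 and Slc1a3 1.40). Rbfox3 of neurons (1.45), Slc17a7 of excitatory neurons (3.15) and Col1a1 of mural and meningeal cells (1.23) were also higher, and Slc17a6 of excitatory neurons (-2.28) lower. The part of these cell types in the values was not tested.

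In the hindbrain nuclei no gene was called higher and 8 were called lower, against 5.17% of all tested genes called higher and 2.67% lower, with a median of -1.37 over the 10. Egr4 fell furthest (-3.16 ± 0.35), then Egr2 (-2.47 ± 0.49) and Nr4a1 (-2.04 ± 0.28), while Npas4, Fos, Egr1, Fosb and Junb lay between -1.69 and -1.23. Within each of 4 blocks, the mean of the hindbrain libraries on log2(TPM + 1) was below that of the other adult libraries for all 8, by as little as -0.11 for Fosb, while single libraries overlapped. Arc (-0.38 ± 0.16) and Ier2 (-0.91 ± 0.14) did not pass the fold limit. Oligodendrocyte markers were called higher in 4 of 4 here, in VTA and in CBN, with medians of 1.79, 1.96 and 2.12, and summed to 7330 TPM or more in every library of these regions; their part in the lower levels was not tested.

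CBN had 7 of the 10 genes called lower, against 2.88% of all tested genes, and none higher, against 7.86%, with Egr1 (-2.27 ± 0.30) and Npas4 (-1.85 ± 0.32) among them, while Fos (-0.97 ± 0.45), Arc (0.03 ± 0.25) and Ier2 (0.14 ± 0.21) were not called. Without the replicates numbered 1, 4 were called: Egr1, Npas4, Fosb and Junb. Choroid plexus markers were higher in CBN in 3 of 3, at 3490 to 12500 TPM in sum, and their part was not tested. In VTA, 7 of the 10 were called lower against 3.65% of all tested genes and none higher against 6.89%, with Egr4 at -4.37 ± 0.72. Arc (-0.67 ± 0.28), Fosb (-0.97 ± 0.43) and Egr2 (-1.56 ± 0.76) were not called in edgeR, whereas limma on log2(TPM + 0.5) called Arc (-1.17) and Fosb (-1.14), both lost without VTA 1. Without VTA 1, the library rich in mitochondrial transcripts, 3 were called (Egr4 -3.88, Egr1 -1.39 and Npas4 -1.23), and 3 were called without the replicates numbered 2.

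The hypothalamus was close to the other adult regions. Arc (-1.39 ± 0.15) and Ier2 (-1.13 ± 0.13) were called lower, against 2.74% of all tested genes, and none higher, against 6.11%, and the median over the 10 was -0.21. With limma on log2(TPM + 0.5), Arc (-1.21) was called and Ier2 (-0.95) was not. Among its nuclei, ARH and VMH had the highest means of Fosb, Junb, Egr2, Egr4 and Nr4a1, and LHA or PVH the lowest. VMH has libraries in blocks 2 and 3 only and PVH in blocks 1 and 4 only. ARH has none in block 1 and LHA none in block 3. These means are therefore not balanced over blocks, and within block 2 Egr4 was lower in ARH 1 (1.77 TPM) than in DMH 2 (3.47 TPM). Neuronal markers were called lower in the hypothalamus in 2 of 4 (Snap25 -1.08 and Rbfox3 -1.02, median -0.55), and their part in these values was not tested.

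**Figure D2:**
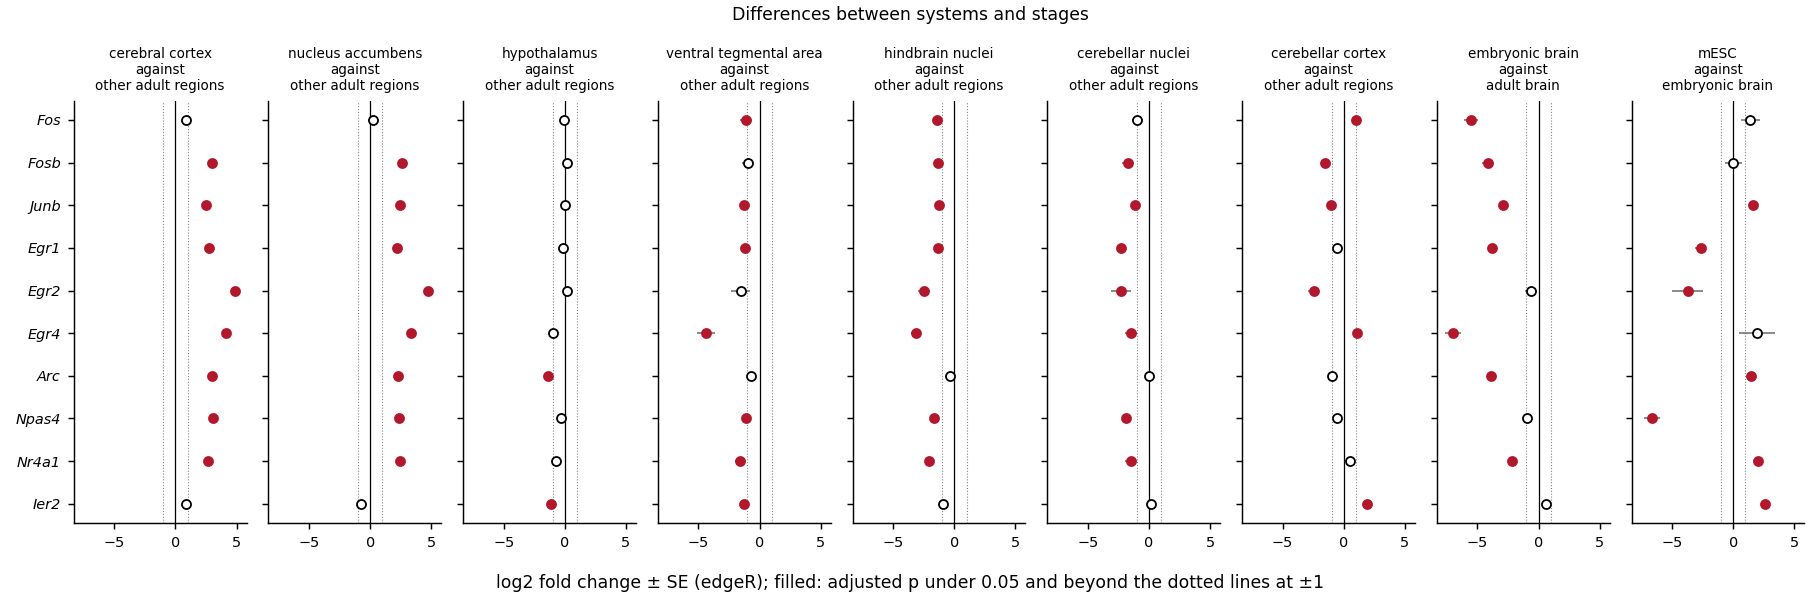
Log2 fold change with its SE from edgeR (horizontal axis) of each gene (vertical axis) in each comparison (panels), filled where the gene was called, with dotted lines at the fold limit of 1 in either direction. The 8 filled points of the cerebral cortex lie between 2.49 (Junb) and 4.91 (Egr2), and the 8 of the hindbrain nuclei between -3.16 (Egr4) and -1.23 (Junb).

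In the embryonic brain 7 of the 10 genes were called lower than in the adult brain, against 19.9% of all tested genes called lower, and the median over the 10 was -3.35. Fos read 1.85, 1.05 and 0.926 TPM in H, 1.21 and 0.572 TPM in M, 0.895, 0.64 and 1.01 TPM in THy-PHy and 0.814 TPM in F. Every adult library exceeded every embryonic one for Fos (2.50 TPM as the lowest against 1.85 TPM as the highest), Arc (5.80 against 3.62 TPM) and Fosb (0.288 against 0.271 TPM), as for 6.2% of the genes with a mean adult level of at least 1 TPM. For Fosb this held in TPM only. The adult library CENT2 4 held 9 estimated counts of Fosb, as did H 2 and H 3, whose total counts were lower. The lowest adult library for each of Fos and Arc was VTA 1. In edgeR, Fos differed by -5.53 ± 0.54 (adjusted p = 2.45e-13), Fosb by -4.15 ± 0.44 (adjusted p = 2.83e-12) and Arc by -3.88 ± 0.28 (adjusted p = 3.32e-18).

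Egr4 was almost without counts in the embryo, with 5 counts over the 9 libraries against 10460 over the 57 adult ones. Its ratio to the adult level, per total count, was 0.00319 (95% interval 0.00104 to 0.00745), or 313-fold lower, where the interval covers counting error only. The edgeR change of Egr4 was -6.99 ± 0.68 on the log2 scale, a smaller fold than this ratio, and at so few counts it depends on the fit. Egr1 (-3.79 ± 0.26), Junb (-2.91 ± 0.24) and Nr4a1 (-2.17 ± 0.34) were also called lower. Npas4 (-0.98 ± 0.19) missed the fold limit, with M at 3.66 and 2.42 TPM, above most adult libraries outside the cortex, ACB and hypothalamus. Ier2 (0.65 ± 0.13) was the gene with a higher embryonic level among those past the adjusted p, at 8.7 to 26.8 TPM (median 12.9, n = 9) in the embryonic brain.

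Egr2 did not pass between the stages (-0.63 ± 0.49, edgeR adjusted p = 0.25), and its embryonic libraries were uneven. The hindbrain, where the gene patterns the rhombomeres in development, read 3.52, 3.46 and 2.36 TPM, against 0 to 0.409 TPM in the 10 libraries of the adult hindbrain nuclei. THy-PHy read 0.908, 0.162 and 2.82 TPM, M 0.572 and 0 TPM and F 0.297 TPM. The hypothalamus and hindbrain are the systems with both stages, and the difference between them changed with stage for Egr2 by -4.41 ± 0.94 (edgeR adjusted p = 0.000303) and for Egr1 by -1.64 ± 0.44 (edgeR adjusted p = 0.00315), as the embryonic hypothalamus minus hindbrain less the adult one. These 2 genes were called lower, against 6.38% of all tested genes. Both genes were higher in the hypothalamus than in the hindbrain in the adult. In the embryo Egr2 had a higher mean in H than in THy-PHy, and so did Egr1 only with H 1 included. Without the replicates numbered 1, Egr1 was at -0.88 (edgeR adjusted p = 0.331) and was no longer called. Among those replicates is H 1, which had 22.6% of its TPM on mitochondrially encoded genes and the lowest total count of the 70 libraries (9074581), and read 7.95 TPM of Egr1 against 4.35 and 3.25 TPM in H 2 and H 3. Without H 1 alone, limma on log2(TPM + 0.5) gave -1.07 for Egr1 (adjusted p = 0.0362) and -2.30 for Egr2 (adjusted p = 0.0112), against -1.40 and -2.39 with it. Neuronal markers were lower in the embryo in 3 of 4 (418 to 1280 TPM in sum against 1370 TPM or more in each adult library), oligodendrocyte markers in 4 of 4, and stage, cell composition and block cannot be told apart.

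In mESC, 4 of the 10 genes were called higher than in the embryonic brain, against 26.8% of all tested genes, and 3 lower, against 29%. Ier2 stood at 72.4 and 70.2 TPM in B6-1 and 71.9 and 81.5 TPM in B6-2, above every brain library, and was higher by 2.63 ± 0.21 (edgeR adjusted p = 2.01e-16). Nr4a1 (2.03 ± 0.43), Junb (1.65 ± 0.30) and Arc (1.47 ± 0.33) were also higher, Arc at 0.95 with limma on log2(TPM + 0.5), under the fold limit. Egr1 was at 0.394 and 0.245 TPM in B6-1 and 0.486 and 0.265 TPM in B6-2, the lowest means of all groups, and differed by -2.64 ± 0.45. For Npas4, mESC held 2 counts against 650 in the embryonic libraries, a ratio of 0.00676 (95% interval 0.000817 to 0.0245, counting error only), and for Egr2 5 against 185, a ratio of 0.0594 (0.0191 to 0.141). Egr4 had 7 counts in the 4 mESC libraries and 5 in the 9 embryonic ones, a ratio per total count of 3.08 (0.84 to 12.3). Both lines grew with MEK inhibitors. The mESC libraries share no block with the embryonic ones, and their RNA was extracted with other reagents than that of the punches. The culture conditions, the cell type, the batch and the extraction cannot be told apart.

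Within a region, the libraries of these genes spread further apart than those of most genes. On log2(TPM + 1), the SD of the 57 adult libraries about their region means was 0.489 as the median of the 10 against 0.241 as the median of 15488 genes, and the 10 lay at a median percentile of 91.8. Fos had the largest SD (0.78, percentile 96.7), then Nr4a1 (0.708, percentile 96), and Egr1 the smallest (0.373, percentile 83.6). This order depends on the setting. On log2(TPM + 0.1), Egr2 had the largest SD (0.956 against 0.818 for Fos), and the median percentile of the 10 was 87.1. With region and block removed on log2(TPM + 1), Egr4 had the largest (0.513 against 0.483 for Fos). Egr1 had the smallest SD in both. In CENT2, for example, Fos read 13.5, 71.5, 116 and 29.6 TPM, and in UVU 17.8, 123 and 46.5 TPM. Between regions, too, the 10 were more variable than most genes, with a median SD of region means of 1.22 against 0.372. For Fos the 2 SDs were nearly equal (0.78 within and 0.822 between), whereas for Egr1 the SD between regions was 1.36.

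**Figure D3:**
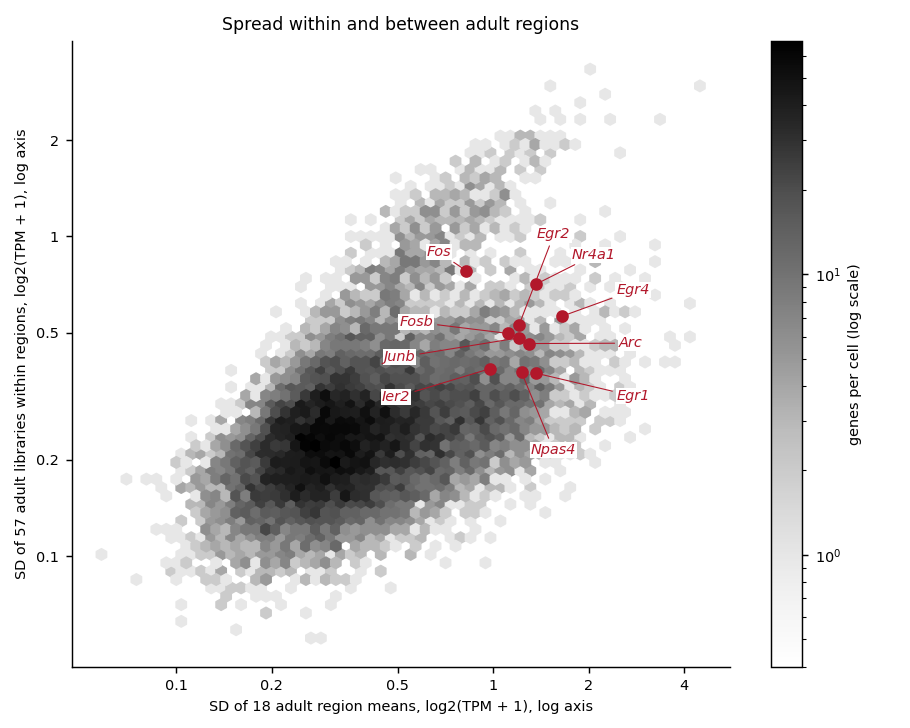
SD of the 57 adult libraries within regions (vertical log axis) against the SD of the 18 region means (horizontal log axis), both on log2(TPM + 1), for 15488 genes shaded by density and for the 10 genes as red points. All 10 lie above the medians of both axes (0.241 and 0.372), with Fos and Nr4a1 the highest.

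Much of this spread ran along the blocks. The block accounted for 74% of the variance of Nr4a1 within regions, 65.6% of that of Fos, 55.8% of Junb and 47.6% of Fosb, against a median of 10.9% over all genes. For Arc and Npas4 it accounted for 17.1% and 18.6%. Fos was higher in block 3 than in block 1 in 7 of 7 regions with both (median ratio 2.59) and higher in block 2 than in block 1 in 8 of 8 (1.96), and in block 4 it fell back, higher than block 3 in 1 of 12. Nr4a1 did the same, with block 3 above block 1 in 7 of 7 regions (2.88) and block 4 above block 3 in 0 of 12. All 11 libraries of block 1 were under their region's mean for Fos, and 14 of 14 of block 3 were above it for Nr4a1. In edgeR, with region in the model, 7 of the 10 genes differed between blocks, against 2.87% of 17787 genes tested: Nr4a1 (adjusted p = 1.3e-08), Fos (9.18e-06), Junb (3.58e-05), Fosb (0.00437), Ier2 (0.0373), Egr1 (0.04) and Egr2 (0.0473). Egr4 (0.0645), Npas4 (0.385) and Arc (0.428) did not pass. Since regions share mice, libraries of the same block may come from the same mice, and these p-values treat them as independent. DESeq2 called 6 and limma 5, and the test kept Nr4a1, Fos and Junb without block 3 and likewise without block 4. Without VTA 1, Egr4 passed (edgeR adjusted p = 0.0465) and Ier2 did not (0.0546).

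**Figure D4:**
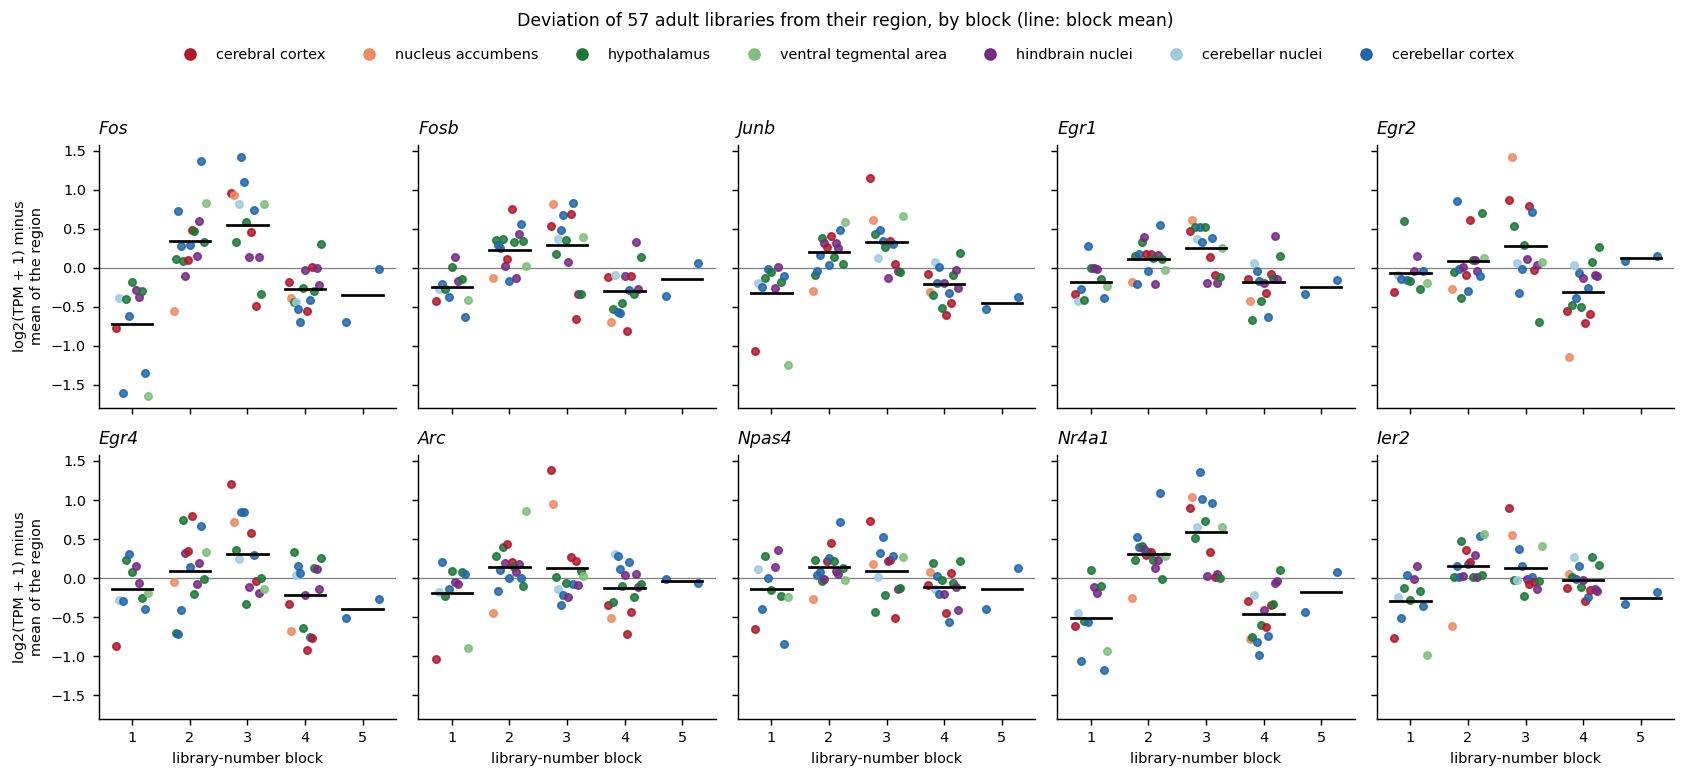
Deviation of each of the 57 adult libraries from the mean of its region on log2(TPM + 1) (vertical axis) by block (horizontal axis), with points coloured by system and a line at each block's mean. Fos and Nr4a1 lie low in block 1, high in blocks 2 and 3 and low again in block 4 across systems, with block means of -0.72, 0.34, 0.54 and -0.28 for Fos.

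Other genes moved along the same blocks. Against block 1, block 3 was higher by 1.52 ± 0.22 for Fos and 1.46 ± 0.17 for Nr4a1 on the log2 scale (edgeR). Of 26 other rapid response genes 13 were called in the same block test, with a median of 0.43 in block 3, and the largest were Klf2 (1.10), Csrnp1 (1.09), the phosphatase gene Dusp1 (0.96) and Apold1 (0.94). Of the other AP-1 subunits 2 of 6 were called (Jun and Fosl2), of the other EGR and NR4A genes 1 of 5 (Nr4a3), and of the 10 late activity-induced genes, 19 upstream regulators and 6 Arc partners none in edgeR. At an unadjusted p under 0.05 those 3 lists had 1, 0 and 1 genes in edgeR, and DESeq2 and limma called 0 in each as well. Genes known to respond to glucocorticoids were called in 5 of 6, with a median of 0.63, among them Sgk1 (1.41), Zbtb16 (0.88) and Tsc22d3 (0.68), the count being 5 by edgeR, DESeq2 and limma alike, and 3 of 7 heat shock genes were called in edgeR, 4 in DESeq2 and 0 in limma. Markers of choroid plexus (2 of 3, median -3.61), blood (2 of 2), endothelium (2 of 4), astrocytes (1 of 4) and mural and meningeal cells (1 of 4) also differed between blocks, while of those of neurons, oligodendrocytes and microglia 0 passed in edgeR, DESeq2 or limma (0, 1 and 3 of 4 at an unadjusted p under 0.05 in edgeR). The choroid plexus calls were made by edgeR alone. Block medians ran from 16257532 to 18218390 for the total count and from 6.94% to 8.64% for the mitochondrial share, and block 3 had the highest of both. Which of these goes with the levels of the 10 genes was not tested.

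Arc was the gene whose block differences depended on the system. In the cortex it averaged 54.2 TPM in block 1 (1 library), 179 TPM in block 2, 215 TPM in block 3 and 98.6 TPM in block 4. In the hypothalamus the same blocks averaged 18.6, 16.9, 10.5 and 14.1 TPM, and in the cerebellar cortex 17.7, 17.3, 16 and 21 TPM. Over the 46 libraries of 4 systems and blocks 1 to 4, the block term differed between systems for Arc in edgeR (adjusted p = 0.00337), as for 0.0398% of 17570 genes. Junb (0.0893) and Nr4a1 (0.158) did not pass, and Fos had 0.454. This term was added after the block values had been seen, and the regions that stand for a system differ between its blocks.

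**Figure D5:**
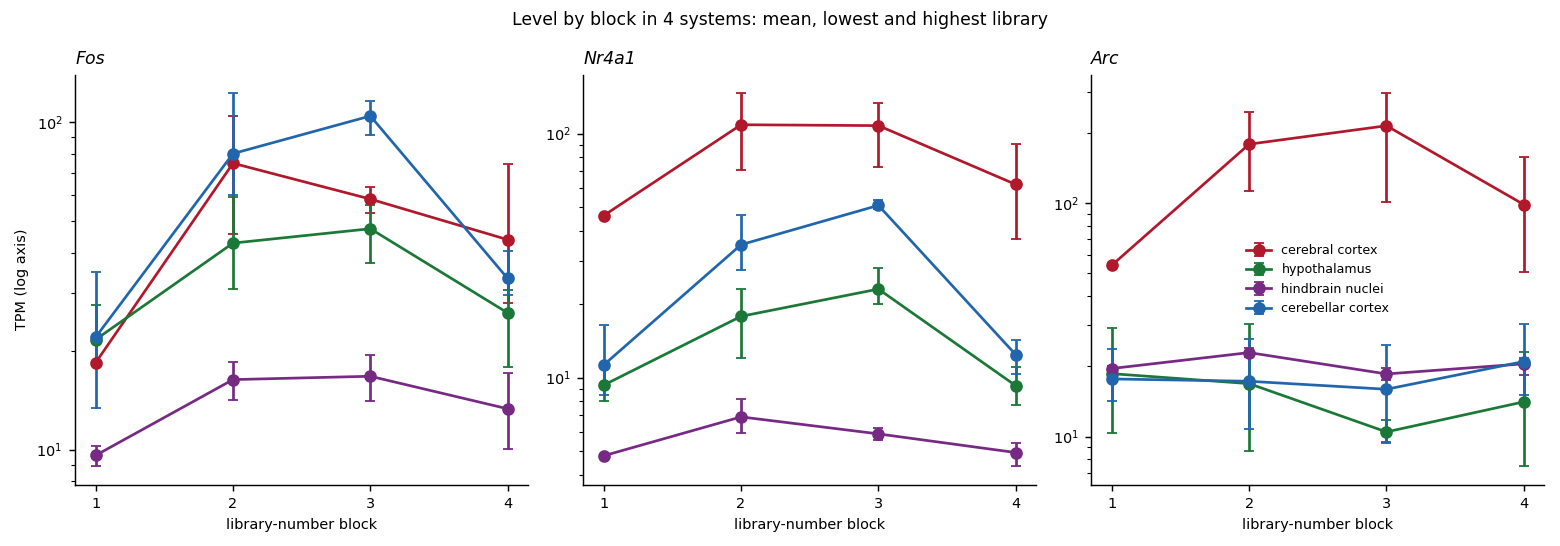
Mean TPM (points, log axis) of Fos, Nr4a1 and Arc in blocks 1 to 4 for the cerebral cortex, hypothalamus, hindbrain nuclei and cerebellar cortex, with bars from the lowest to the highest library. Fos and Nr4a1 rise and fall with the block in all 4 systems, whereas Arc does so in the cerebral cortex, from 54.2 TPM in block 1 to 215 TPM in block 3.

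The 10 genes also varied together. Over the 18 adult region means, Pearson's r of log2(TPM + 1) between pairs of the genes had a median of 0.79 (-0.05 to 0.98), and Ier2 was the least alike, with a median of 0.21 to the other 9. Over the deviations of the 57 libraries from their region means the median was 0.58 (0.28 to 0.91), and the closest pair was Fos and Nr4a1. These libraries share mice and blocks, so the values describe them and are not independent. Against the mean profile of the 10, the genes most alike over region means among 12078 were 2010300C02Rik and Palm (0.97 each), then Kcnh3, Pkig, Homer1, Dnajb5, Mex3b, Mertk, Fam131a and Wasf1 (0.94 to 0.95), of which Fam131a alone was also among the first 10 by Spearman's rho. Over the deviations within regions the list was another one, led by Btg2 (0.91), an antiproliferative gene, Dusp1 (0.86), the salt-inducible kinase gene Sik1 (0.80) and Trib1 (0.79), followed by Mcl1, Irf2bp2, Jun, Klf2, Tob2 and Gadd45g (0.73 to 0.78), and 9 of these 10 were also among the first 10 by Spearman's rho.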

How the data were processed

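The deposited values of 70 libraries were used. Per the labels and methods, the authors made strand-specific mRNA libraries, sequenced them as single reads of 33 cycles, demultiplexed them with CASAVA 1.8.2 and quantified them with Kallisto on Ensembl GRCm38 cDNA; the Ensembl release is not given in the sources used here. The deposited files hold estimated counts per transcript, and the authors also deposited TPM per transcript and per gene, the latter as sums of transcripts. Short reads leave the split between transcripts of a gene uncertain.

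Estimated counts were summed per gene (GENCODE M21 names, 98.8% of 109282 transcripts matched) and rounded. Differences were tested with edgeR 4.0.16 (R 4.3.3; TMM, low-count filter, quasi-likelihood test, Benjamini-Hochberg over all genes tested), with all 70 libraries in 1 model, and as alternatives with DESeq2 1.42.0 and limma 3.58.1. A call required a log2 fold change beyond 1 in either direction and an adjusted p under 0.05, or the adjusted p alone for differences among regions or blocks. Levels, spreads and correlations used the deposited TPM, as log2(TPM + 1), in Python 3.11.15 with pandas 2.3.3, NumPy 2.4.6 and matplotlib 3.10.9. The tests across all genes were tested on simulated data. Precision is limited by the 1 to 4 pools per group, and total estimated counts per library ranged from 9074581 to 22229582.

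The members and gene lists were chosen with earlier results of these data known. All 10 members are named. Of a list, at most the 4 called genes with the largest log2 fold change are named, with values. Of the genes most like the members' mean profile (mean TPM of at least 5), the first 10 are named. Block comparisons beyond the main block test, and the leaving out of single libraries, were chosen after seeing the data. Replicate numbers were not taken to pair the libraries, since the labels name nothing they share and same-numbered libraries of different regions had a median correlation of deviations of 0.01 (-0.22 to 0.42). Libraries of the same block had 0.03 (-0.2 to 0.42). The values of 1 region marker are not reported here.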

Additional observations from a re-analysis of the deposited data

Results flagged for a closer look

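In 4 of 50 sets of 4 libraries, one gene in one region each, 1 library lay far above the other three in TPM, where chance gives about 1 in 20. Egr2 read 1.354 TPM in CENT2 2 against 0, 0.0443 and 0.185 TPM, and 1.093 TPM in FL 3 against 0.0414, 0.0739 and 0.146 TPM. CENT2 2 held 2 estimated counts of Egr2, against 3, 1 and 0 in CENT2 1, 3 and 4, so it did not stand out in counts. FL 3 held 31, against 3, 1 and 2 in FL 1, 2 and 4. Fosb read 3.536 TPM in FL 3 against 0.973, 1.11 and 1.27 TPM. Ier2 read 9.79 TPM in DMH 2 against 5.65, 6.15 and 6.18 TPM.

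The difference between hypothalamus and hindbrain changed with stage for Egr2 (-4.41, edgeR adjusted p = 0.000303) and Egr1 (-1.64, edgeR adjusted p = 0.00315) in the test of that change itself. The block differences of Arc varied between systems (edgeR adjusted p = 0.00337).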

How the results depend on the processing

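No called member changed direction under the alternatives run, although Junb in the cerebellar cortex differed by 0.21 on log2(TPM + 1) within block 1. Of the single-gene values under alternatives, 1494 stayed called or stayed uncalled, 62 lost a call and 24 gained one. Members called went from 2 to 1 in the hypothalamus with limma on log2(TPM + 0.5) or log2(TPM + 0.1), from 6 to 3 in the cerebellar cortex with limma on log2(TPM + 0.5), from 7 to 3 in VTA without VTA 1 or without the replicates numbered 2, and from 7 to 4 in CBN without those numbered 1. The block test gave 3 without block 3 and 3 without block 4, in place of 7, and the members' median percentile of spread was 85.2 with the block removed, in place of 91.8. The cause of these changes was not tested.

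Leaving out single libraries or replicate numbers gave 8 to 9 called in the cortex, ACB and hindbrain nuclei, 1 to 3 in the hypothalamus, 3 to 9 in VTA, 3 to 7 in the cerebellar cortex, 4 to 8 in CBN, 7 between stages, 6 to 7 in mESC, 2 to 3 in the stage difference and 10 among regions. These ranges pool limma and edgeR, whose calls already differ with all libraries in. In VTA limma then called Arc and Fosb and edgeR did not. In the cerebellar cortex edgeR then called Egr4, Fos and Junb and limma did not. Each library in turn was left out in limma, and VTA 1 in edgeR too. In limma, Arc, Fos and Fosb in VTA rested on VTA 1 and Nr4a1 in CBN on CBN 1. The replicate block, with the replicate number in place of the block, called 0 members in edgeR (8 at an unadjusted p under 0.05, lowest adjusted p 0.225). Of 57 libraries, 27 correlated best with a library of their own replicate number and 27 with one of their own block. No chance value is given beside these counts, so they leave the pairing by number unsettled.

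With 1 to 4 pools per group, differences between single nuclei were not tested. Genes at low counts (Egr4 and Fosb in the embryo and mESC, and Egr2 and Npas4 in mESC) have wide errors.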
